A study of Mus musculus with 32 samples.

Results

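The genes examined here encode the proteasome. They are the genes whose annotated symbol is Psma, Psmb, Psmc, Psmd or Psme followed by a number, of which RefSeq lists 43 in the mouse, and 39 of them were measured by 51 probes among the 15187 named genes of the series. Where a gene had more than 1 probe, the probe with the highest mean over both value tables stood for it. The members comprised 6 alpha and 7 beta subunits of the constitutive 20S core, the immunoproteasome subunits Psmb8 and Psmb10, the thymus form Psmb11, the testis form Psma8, 5 ATPases of the 19S cap, 13 other Psmd genes and the 4 activator genes Psme1 to Psme4. Psma5, Psmb9, Psmc1 and Psmd14 were not analysed here.

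RNA had been hybridised to Illumina MouseWG-6 beadchips, 32 arrays in all. From BALB/c mice carrying an IL-5 transgene driven by the CD2 promoter, which is active in T cells (IL5T mice), there were 5 arrays of common myeloid progenitors (IL5T CMP), 5 of granulocyte-macrophage progenitors (IL5T GMP), 3 of eosinophil progenitors (IL5T EoP), 3 of bone marrow eosinophils with medium Siglec-F (IL5T EoM BM), 4 of bone marrow eosinophils with high Siglec-F (IL5T EoH BM) and 3 of peripheral blood eosinophils with high Siglec-F (IL5T EoH PB). From wild-type (WT) BALB/c mice there were 3 arrays each of CMP, GMP and EoP. All mice were 7 to 12 weeks old, and each array held RNA pooled from several mice and sorted by surface markers, CMP as Lin-, cKit+, Sca1-, CD34+ and CD16/32 low, GMP as CD16/32+ and IL-5Rα-, EoP as IL-5Rα+ and eosinophils as IL-5Rα intermediate.

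The proteasome is the protease that breaks down ubiquitin-tagged proteins in the cytosol and nucleus. Its 20S core is a barrel of alpha subunits, which gate the entrance, and beta subunits, of which Psmb5, Psmb6 and Psmb7 cut the substrate. The 19S cap recognises ubiquitin, removes it and unfolds the substrate with a ring of Psmc ATPases. In cells of the immune system, and after interferon, Psmb8, Psmb9 and Psmb10 take the places of Psmb5, Psmb6 and Psmb7 in newly made cores, which gives the immunoproteasome, known for making peptides for MHC class I. PA28αβ (Psme1 and Psme2), PA28γ (Psme3) and PA200 (Psme4) are activators that bind the core in place of the cap.

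Of the 24159 probes shared by both beadchip versions, 8360 to 10929 were detected per array (detection p under 0.05). The 3 array runs were unevenly filled. All 10 eosinophil arrays were hybridised in a run of their own on version 1.1, 6 IL5T CMP and IL5T GMP arrays in another run on version 1.1, and the remaining 16 arrays on version 2.0, so every contrast of eosinophils with EoP rests on the version effect estimated from IL5T CMP and IL5T GMP, and run and stage cannot be told apart there. The study describes the arrays of a group as independent replicates, each a pool of mice, and all p-values measure the spread between these pools. The array name of IL5T CMP replicate 2 names GMP and the antibody label of EoH BM gives medium Siglec-F, while their other labels name the groups used here. The Y-linked gene Eif2s3y, looked up after earlier results were known, was detected on 0 of 10 eosinophil arrays and on 22 of 22 progenitor arrays, so the sex of the pooled mice and the stage cannot be told apart there either. The X-linked Xist was detected on every eosinophil array. Among progenitors it was detected on 4 of 5 IL5T CMP, 3 of 5 IL5T GMP and 2 of 3 IL5T EoP arrays. In WT cells it was detected on 1 of 3 CMP, 1 of 3 GMP and 2 of 3 EoP arrays. The mix of sexes can therefore also differ within and between progenitor groups, and its part was not tested. Of the 6 eosinophil markers measured, all were detected in EoM BM and EoH BM, Il5ra was not detected in EoH PB, and Ccr3 and Siglecf were not detected in EoP. In bulk RNA, fewer cells of a type and less RNA per cell cannot be told apart.

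Detection of the proteasome probes split into 3 kinds. The probes of Psma1, Psma6 and Psmd3 were detected on 0 arrays, so nothing can be said of these genes. Psmb11 was detected on 4 arrays, Psmc6 on 12, Psme4 on 15, Psmd11 on 20 and Psmd2 on 29. Psmc2, Psmd12, Psmd6 and Psma8 were each detected on 22 arrays, which were the 22 progenitor arrays. The remaining 27 members were detected on 32 arrays. All levels below are normalised log2 intensities adjusted for beadchip version, and levels of different probes are not compared.

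Across the series the main division was between progenitors and eosinophils. In 12 of 39 members, the 10 eosinophil arrays all lay below the 22 progenitor arrays, and in 0 members did they all lie above, against 8.83% and 6.4% of all probes. These shares cover all probes, detected or not, and none over detected probes is given for this split. In EoM BM against EoP, the share called lower was 15.1% of all probes and 34.1% of detected ones. The 12 were Psma3, Psma4, Psmb2, Psmb3, Psmb5 and Psmb6 of the core, Psmc2, Psmc3, Psmd7 and Psmd12 of the cap, Psme3 and Psma8. The lowest, median and highest levels of Psmb6, the subunit with caspase-like activity, were 11.40, 11.77 and 11.96 in eosinophils, against 12.73, 12.94 and 13.23 in progenitors. Those of Psma4 were 11.05, 11.42 and 11.81 in eosinophils, against 12.59, 12.92 and 13.21 in progenitors. In both immunoproteasome subunits the ranges overlapped. Psmb10 had 11.07, 11.65 and 12.09 in eosinophils and 11.09, 11.88 and 12.20 in progenitors, and the 6 lowest progenitor arrays were EoP arrays.

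**Figure D1:**
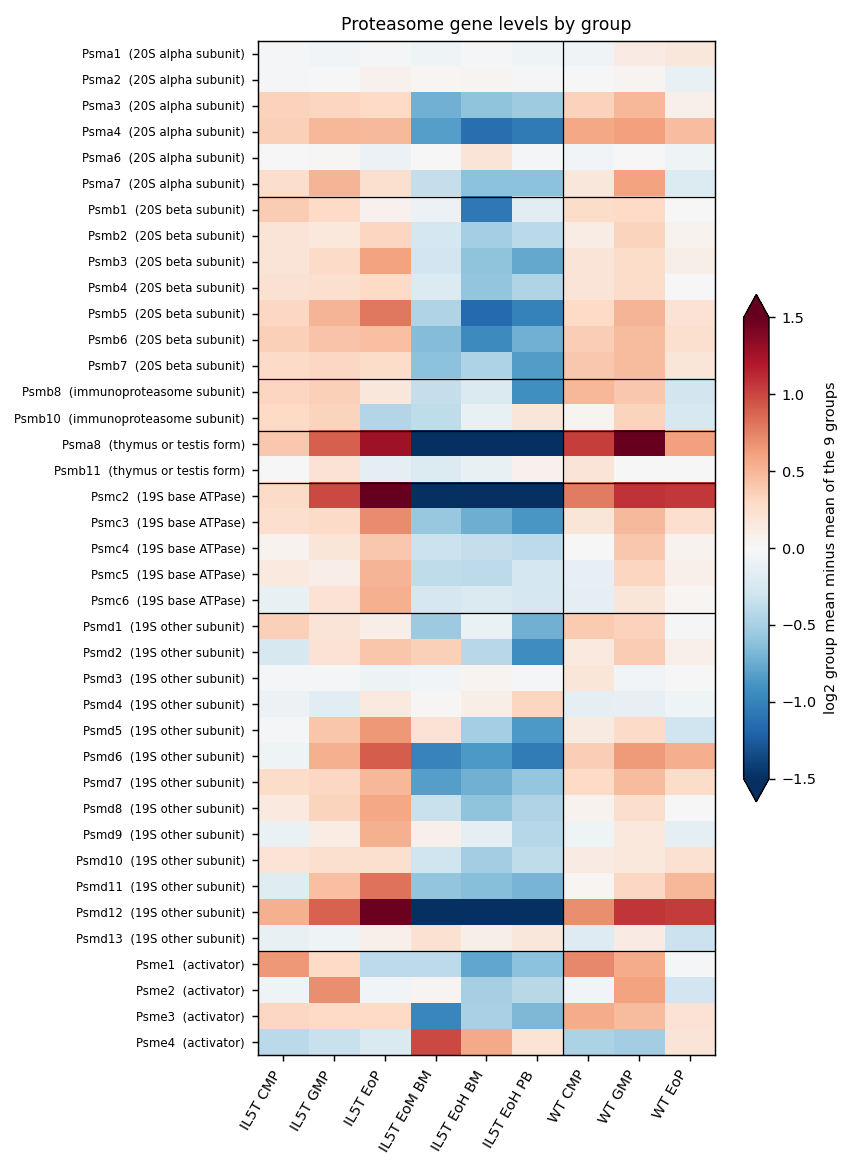
Mean level of each of the 39 measured proteasome genes (rows, grouped by place in the complex) in the 9 groups (columns), as the log2 group mean minus the mean of that gene's 9 group means. Core and cap genes are mostly blue in the 3 eosinophil groups, Psme4 is red in EoM BM, and the colours are cut at 1.5 on either side.

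The comparison of EoM BM with EoP followed the cells from the committed progenitor to the first eosinophil stage in the marrow. In EoM BM 9 core and 9 cap genes were called lower, by 1.42-fold to 2.51-fold where both groups were detected, while Psmb8, Psmb10, Psme1 and Psme2 were not called and Psme4 was higher. By limma with Benjamini-Hochberg adjustment over all probes, 1 of 39 members was higher and 20 were lower (adjusted p under 0.05), against 28.9% of all probes called in either direction, 13.8% higher and 15.1% lower. The arrays of both groups lay apart in 21 of 39 members, against 45.6% of all probes. The median log2 difference was -0.60 over members and 0.02 over all probes. Among probes detected on every array of either group, 20 of 34 members were lower and 1 higher, against 34.1% and 29.6% of 9634 probes.

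Of the 13 constitutive core genes, 9 were lower and 0 higher in EoM BM. Psmb5, which carries the chymotrypsin-like site, had 9.34, 9.69 and 9.57 in EoM BM, against 11.11, 10.67 and 10.56 in IL5T EoP. The groups lay apart on every array, a log2 difference -1.24 ± 0.24 (SE), limma adjusted p = 1.9e-04. Psmb6 had 11.87, 11.86 and 11.96 in EoM BM, against 13.23, 12.96 and 12.82 in IL5T EoP, again without overlap (log2 difference -1.11 ± 0.11 (SE), limma adjusted p = 1.0e-08). Psmb7, with trypsin-like activity, had 11.89, 11.92 and 11.26 in EoM BM, against 12.75, 12.28 and 12.70 in IL5T EoP, and EoM BM replicate 3 was the lowest (log2 difference -0.89 ± 0.27 (SE), limma adjusted p = 0.012). Without that array the Psmb7 difference was -0.67 and was no longer called (adjusted p = 0.066). The noncatalytic subunits Psmb2, Psmb3 and Psmb4 were lower, with log2 differences of -0.58, -0.89 and -0.50, and the alpha subunits Psma3, Psma4 and Psma7 with -1.02, -1.31 and -0.59. The call of Psmb4 was lost without any 1 of 7 of the 32 arrays (-0.52 to -0.32). Psmb1 and Psma2 were not called, with differences of -0.15 and -0.03.

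Of the 18 cap genes, 9 were lower and 0 higher in EoM BM. Cap genes were counted by symbol as the Psmc and Psmd genes measured. Among them are Psmd5, a chaperone of cap assembly, and Psmd3, which was detected on 0 arrays. The ATPase Psmc2 had 4.78, 5.19 and 5.23 in EoM BM, where it was not detected, against 8.79, 9.04 and 7.87 in IL5T EoP, which made it at least 6.38-fold lower (adjusted p = 3.7e-06). Such a bound sets the mean of the detected group against the lowest signal among detected probes on each array of the other. Where the probe's own signal there is higher, that signal is used. The bound concerns group means only, holds neither the spread between arrays nor the error of the version term, and is not the end of a 95% interval. Psmd12, a scaffold subunit of the cap's lid, had 5.19, 5.20 and 4.99 in EoM BM, against 8.99, 8.99 and 7.56 in IL5T EoP, at least 5.49-fold lower (adjusted p = 8.2e-06). The lid subunit Psmd6 had 5.72, 5.66 and 5.59 in EoM BM, against 8.32, 8.01 and 6.38 in IL5T EoP. By this probe its mean was at least 1.78-fold lower (log2 difference -1.91 ± 0.60 (SE), limma adjusted p = 0.017). Its second probe, detected on 14 arrays, gave a log2 difference of -0.74 and was not called (limma adjusted p = 0.28). EoP replicate 3 was the lowest EoP array for Psmc2, Psmd12 and Psmd6. The call of Psmd6 was lost without EoP replicate 1, EoP replicate 2 or IL5T CMP replicate 5, with log2 differences of -1.54, -1.69 and -1.50. Psmd11 was at least 1.33-fold lower, a call lost without IL5T EoP replicate 1 (-1.23), IL5T EoP replicate 2 (-1.14) or IL5T CMP replicate 5 (-1.02). The other cap genes lower in EoM BM were Psmc3 with -1.27 (adjusted p = 1.7e-08), Psmc4 with -0.73 (adjusted p = 4.1e-04), Psmc5 with -0.88 (adjusted p = 5.0e-04), Psmd7 with -1.33 (adjusted p = 1.3e-07) and Psmd8 with -0.92 (adjusted p = 0.012) on the log2 scale. Psmd13, a lid subunit, and Psmd4, a ubiquitin receptor, were not called, with 0.15 and -0.12.

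Psma8, known in the mouse as the alpha subunit of the testis proteasome, had 4.35, 4.34 and 4.31 in EoM BM, where it was not detected, against 7.29, 7.70 and 7.83 in IL5T EoP, at least 4.22-fold lower (adjusted p = 1.1e-11). It was detected on all 22 progenitor arrays and on 0 of 10 eosinophil arrays. The thymus form Psmb11 was detected in neither group.

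**Figure D2:**
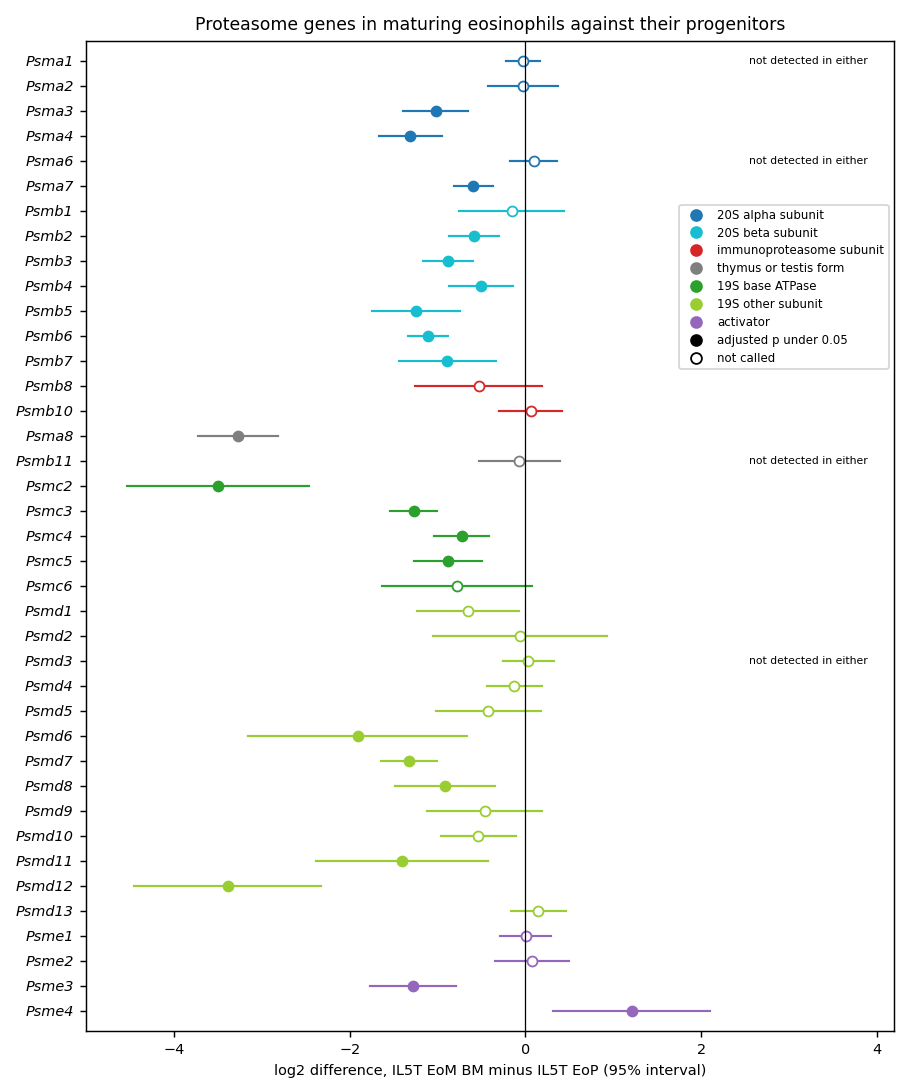
Log2 difference of each of the 39 proteasome genes, IL5T EoM BM minus IL5T EoP (3 arrays each), with its 95% interval, coloured by place in the complex and filled where the adjusted p was under 0.05. Core, cap and Psme3 points lie mostly left of 0, Psmb10, Psme1 and Psme2 lie at 0, and Psme4 lies at 1.21.

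The immunoproteasome and PA28αβ genes were not called between EoM BM and EoP. Psmb10, which replaces Psmb7, had 11.46, 11.07 and 11.39 in EoM BM, against 11.41, 11.09 and 11.24 in IL5T EoP. The arrays interleaved, and the log2 difference of 0.06 had a 95% interval of -0.30 to 0.42 (limma adjusted p = 0.87). Psmb8, which replaces Psmb5, had 12.41, 12.33 and 11.75 in EoM BM, against 12.73, 12.68 and 12.67 in IL5T EoP. All 3 EoM BM arrays were lower, but they spread widely, and the difference of -0.53 had an interval of -1.25 to 0.19 (adjusted p = 0.32). The second Psmb8 probe gave 0.44 in this comparison, the opposite sign, also not called. Psme1 had 11.75, 12.01 and 12.07 in EoM BM and 11.89, 11.92 and 12.01 in IL5T EoP (log2 difference 0.00 ± 0.14 (SE), limma adjusted p = 0.99). Psme2 had 9.61, 9.88 and 10.16 in EoM BM and 9.80, 9.78 and 9.85 in IL5T EoP (log2 difference 0.08 ± 0.20 (SE), limma adjusted p = 0.86). For both genes the EoM BM arrays lay on either side of the EoP arrays.

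The other activators differed. Psme3, the nuclear PA28γ, had 10.46, 10.01 and 10.26 in EoM BM, against 11.75, 11.28 and 11.53 in IL5T EoP (log2 difference -1.28 ± 0.24 (SE), limma adjusted p = 1.2e-04). Psme4, the PA200 activator, had 6.80, 6.02 and 7.04 in EoM BM, against 6.15, 4.95 and 5.13 in IL5T EoP. It was detected on 3 of 3 EoM BM arrays and 1 of 3 EoP arrays, 1 EoP array lay above the lowest EoM BM array, and the difference was called (log2 difference 1.21 ± 0.43 (SE), limma adjusted p = 0.037). It was the 1 member called higher, and the call was lost without any 1 of 10 of the 32 arrays (0.98 to 1.23), with a replicate block (0.94, adjusted p = 0.45) and with arrays scaled to a common median (0.51, adjusted p = 0.40).

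The promoter windows of 4 members are shown because these members were called or not called here, Psmb5 and Psmb6 lower and Psmb8 and Psme1 not called. They are RefSeq sequences on GRCm38.p6, 5′ to 3′, of 300 bases each, with 250 bases before the annotated start and 50 from it on. Capitals mark each match to the letters searched on both strands, GAAA and GAAA with 2 bases between them for the interferon-stimulated response element (ISRE), TGACNNNGC for the antioxidant response element (ARE) of NRF1 and NRF2, CCAAT for the NF-Y box and GGGCGG for the GC box. No matches overlap in these windows. Psmb8 lies at chr17:34197945-34198244 on the plus strand, Psme1 at chr14:55578244-55578543 on the plus strand, Psmb5 at chr14:54617946-54618245 on the minus strand and Psmb6 at chr11:70525107-70525406 on the plus strand.
Psmb8: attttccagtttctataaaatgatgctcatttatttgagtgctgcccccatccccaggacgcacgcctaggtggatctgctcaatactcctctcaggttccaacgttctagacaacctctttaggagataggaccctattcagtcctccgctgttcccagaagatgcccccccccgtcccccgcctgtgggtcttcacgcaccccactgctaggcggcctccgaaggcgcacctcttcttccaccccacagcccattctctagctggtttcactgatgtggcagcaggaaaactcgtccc
Psme1: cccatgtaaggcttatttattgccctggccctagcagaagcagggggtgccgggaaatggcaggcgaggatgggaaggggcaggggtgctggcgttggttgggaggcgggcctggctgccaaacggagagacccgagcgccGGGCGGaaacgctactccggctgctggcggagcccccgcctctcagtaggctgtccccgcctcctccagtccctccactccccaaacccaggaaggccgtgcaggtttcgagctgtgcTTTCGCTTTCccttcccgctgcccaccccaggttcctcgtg
Psmb5: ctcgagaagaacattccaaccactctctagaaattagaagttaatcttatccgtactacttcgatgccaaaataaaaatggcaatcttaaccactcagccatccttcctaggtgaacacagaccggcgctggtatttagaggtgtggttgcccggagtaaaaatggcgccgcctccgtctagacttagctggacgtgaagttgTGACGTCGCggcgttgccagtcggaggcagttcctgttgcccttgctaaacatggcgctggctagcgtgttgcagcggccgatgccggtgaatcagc
Psmb6: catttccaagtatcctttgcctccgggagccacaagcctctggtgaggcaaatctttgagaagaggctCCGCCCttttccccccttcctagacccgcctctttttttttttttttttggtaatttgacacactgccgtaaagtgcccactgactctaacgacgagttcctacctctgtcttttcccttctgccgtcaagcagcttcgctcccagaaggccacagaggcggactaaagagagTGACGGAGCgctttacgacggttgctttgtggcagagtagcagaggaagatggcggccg

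In the Psmb8 window none of these letters were found. The Psme1 window held 1 ISRE match, TTTCGCTTTC, beginning at base 10 after the start, and 1 GC box. The Psmb5 and Psmb6 windows each held 1 ARE match, TGACGTCGC beginning at position -47 and TGACGGAGC at -9, and Psmb6 also a GC box. In the windows of Psmb10 and Psme2 the letters of ISRE and ARE were not found. Of 32 members with a window in the table, 4 held an ISRE match, against 3.99% of 27025 genes, and 6 an ARE match, against 14.0%. CCAAT was in 11 of 32, against 41.1%, and a GC box in 20 of 32, 12 of them among the 15 cap genes, against 38.2%. A match describes the letters of a window and is not a site.

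Genes that work with the proteasome were read from lists, whose counts stand beside 13.8% of all probes higher and 15.1% lower, and 29.6% and 34.1% of the detected ones. Of 3 assembly genes, 0 were higher and 2 lower in EoM BM than in EoP, the assembly chaperone Psmg3 with -1.18 (adjusted p = 3.2e-04) and Pomp, which matures the core, with -0.49 (adjusted p = 0.011) as log2 differences by limma. Of 11 regulators and associated proteins, 0 were higher and 4 lower, among them the cap's deubiquitinase Uchl5 with -1.58 (adjusted p = 2.7e-04), the shuttle protein Ubqln4 with -1.43 (adjusted p = 3.6e-07) and Ecpas, which binds the 26S complex, with -1.28 (adjusted p = 0.0057). Of 7 ubiquitin genes, 1 was higher and 1 lower, the conjugating enzymes Ube2d3 with 0.90 (adjusted p = 0.026) and Ube2k with -1.24 (adjusted p = 4.1e-06). Of 11 genes of MHC class I presentation, 6 were higher and 2 lower. The heavy chains H2-K1 and H2-D1 were higher with 1.73 (adjusted p = 5.3e-05) and 1.56 (adjusted p = 7.2e-06), and the peptide transporter Tap1 with 1.22 (adjusted p = 1.2e-04), whereas Pdia3, an isomerase of the loading complex, was lower with -1.63 (adjusted p = 1.4e-09). Of 13 interferon response genes, 6 were higher and 1 lower, with Irf1 at 2.40 (adjusted p = 5.3e-08), Irf9 at 2.09 (adjusted p = 4.5e-10) and Irf7 at 2.61 (adjusted p = 2.7e-07). The guanylate-binding protein gene Gbp3 was lower with -1.98 (adjusted p = 7.4e-05).

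Marker genes of other cells moved in the same comparison. Of 10 neutrophil granule genes, 5 were higher and 3 lower, and their summed intensity was 107200 to 149300 in EoM BM, against 33980 to 41970 in IL5T EoP, with Mmp8 not detected in either. Of 4 B cell markers, 3 were higher, with sums of 1371 to 4163 in EoM BM, against 904 to 1103 in IL5T EoP, where Cd79a and Vpreb3 were not detected. Of 9 T cell markers, 3 were higher, with sums of 1348 to 1695 in EoM BM, against 286 to 419 in IL5T EoP, and 7 of the 9, Cd3e, Cd4 and Cd8a among them, were not detected in EoM BM. Cd3g, with means of 10.24 in EoM BM and 4.67 in IL5T EoP, weighed most in the EoM BM sums. Of 9 monocyte markers, 5 were higher and 1 lower, with sums of 3676 to 5986 in EoM BM, against 1145 to 1810 in IL5T EoP. Adgre1 had the highest mean of them in both groups, 12.00 and 9.66, and weighed most in these sums. Ly86 had 7.30 in EoM BM and 7.34 in IL5T EoP, and Cd14 5.96 and 7.46. Of 5 mast cell and basophil markers, 4 were lower, with sums of 190 to 255 in EoM BM, where 4 were not detected, against 5349 to 8815 in IL5T EoP. Of 5 erythroid markers, 2 were higher and 3 lower, with sums of 6505 to 40110 in EoM BM, against 6266 to 7348 in IL5T EoP. Of 5 progenitor markers, 2 were lower, with sums of 2180 to 2615 in EoM BM, against 4359 to 4510 in IL5T EoP. Their part in the proteasome differences was not tested. Without the version term the Psmb5 difference was 0.25 instead of -1.24 and that of Psmd8 was 0.65 instead of -0.92. These were the 2 called member values that changed sign under an alternative run.

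**Figure D3:**
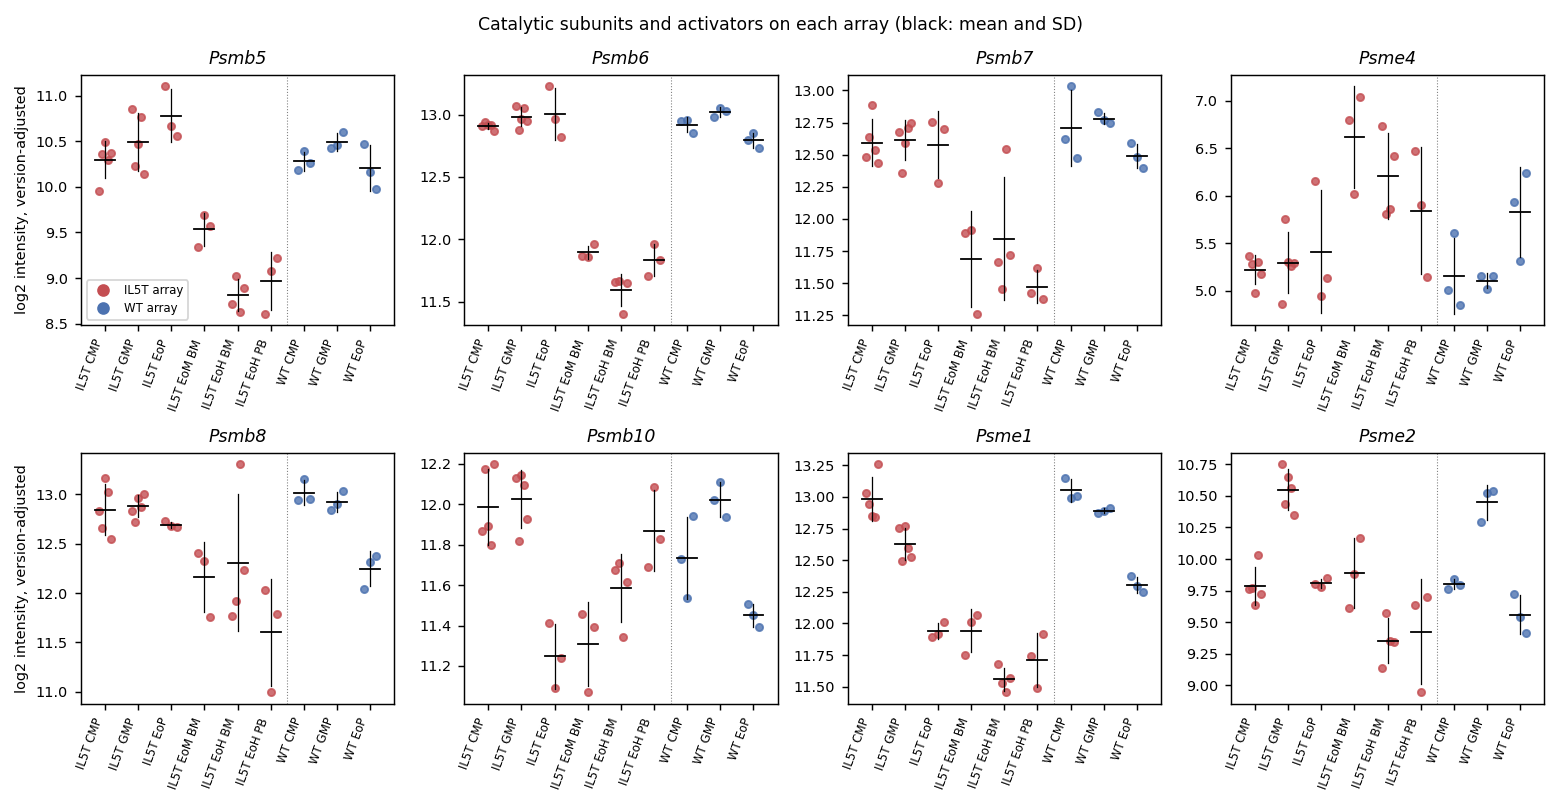
Version-adjusted log2 intensity of the constitutive catalytic subunits and Psme4 (top) and of the immunoproteasome and PA28αβ genes (bottom) on each array (points), with the group mean (bar) and SD (line), in the IL5T stages from CMP to EoH PB and then the WT stages. Psmb5 and Psmb6 separate eosinophils from progenitors, Psmb10 and Psme1 are lower in EoP than in GMP, and 1 EoH BM array stands high in Psmb7 and Psmb8.

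Set against IL5T GMP instead, EoM BM was lower in more of the family, and Psmb10, Psme1 and Psme2 were among the genes called. 2 of 39 members were higher and 27 lower, against 34.3% of all probes called, 16.9% higher and 17.5% lower, with a median log2 difference of -0.66 over members. Psmb10 had 11.46, 11.07 and 11.39 in EoM BM, against 12.13, 11.82, 12.15, 12.10 and 11.93 in IL5T GMP, without overlap (log2 difference -0.72 ± 0.13 (SE), limma adjusted p = 5.6e-05). Psme1 and Psme2 were lower, with -0.69 (adjusted p = 5.4e-06) and -0.66 (adjusted p = 8.5e-04). Psmb8 had 12.41, 12.33 and 11.75 in EoM BM, against 12.83, 12.72, 12.97, 12.87 and 13.01 in IL5T GMP (log2 difference -0.72 ± 0.26 (SE), limma adjusted p = 0.033). Its call was lost without EoM BM replicate 3, GMP replicate 1, GMP replicate 3 or IL5T CMP replicate 5 (values of -0.51, -0.74, -0.69 and -0.67), and its second probe gave 0.30, not called. Psmb5, Psmb6 and Psmb7 were lower with -0.96, -1.09 and -0.92, all called. Psme4 with 1.32 (adjusted p = 0.0016) and Psmd13 with 0.29 (adjusted p = 0.047) were higher, the call of Psmd13 being lost without any 1 of 21 of the 32 arrays (0.23 to 0.30). With arrays scaled to a common median neither was called, at 0.64 (adjusted p = 0.13) for Psme4 and 0.098 (adjusted p = 0.65) for Psmd13. EoM BM and GMP arrays lay apart in 29 of 39 members, against 38.4% of all probes. Where probes were detected, 2 of 33 members were higher and 25 lower, against 34% and 38.9% of 9646 probes. From version 1.1 arrays alone 24 members were called here, against 7604 of all 24159 probes.

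Whether an immunoproteasome subunit fell less than the subunit it replaces was tested on version 1.1 alone, with 10 eosinophil arrays against 6 IL5T CMP and IL5T GMP arrays, by a two-sided exact permutation test over all 8008 regroupings. Psmb8 changed by -0.81 and Psmb5 by -1.32, so that Psmb8 relative to Psmb5 was 0.51 higher in eosinophils (exact p = 0.15, and 0.15 adjusted over 2 pairs). Psmb10 changed by -0.42 and Psmb7 by -0.92, a relative difference of 0.50 (exact p = 0.058, adjusted 0.12). Neither reached the threshold. Relative to the mean of the progenitors, Psmb10 over Psmb7 was 0.17, -0.25 and 0.73 on the EoM BM arrays, 0.61, 0.85, -0.60 and 0.50 on the EoH BM arrays and 0.87, 1.07 and 1.05 on the EoH PB arrays, against -0.40 to 0.16 on the progenitor arrays. The EoH BM array at -0.60 was replicate 3. Without it the relative difference was 0.62 (unadjusted exact p = 0.0080), and without EoM BM replicate 2 it was 0.58 (p = 0.026, exact). Psmb8 over Psmb5 was 0.62 without EoH PB replicate 2 (p = 0.049, exact) and 0.32 without EoH BM replicate 3 (p = 0.19, exact), the array on which it was 2.21. With the mean of all probes of each gene the values were 0.88 for Psmb8 and Psmb5 (p = 0.0020, exact) and 0.76 for Psmb10 and Psmb7 (p = 0.0056, exact). The third pair, Psmb9 and Psmb6, could not be tested. The compared arrays came from different runs, so run and stage cannot be told apart.

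Within eosinophils, several core genes and the PA28αβ genes were called lower at the step to high Siglec-F in the marrow, in the fit over all 32 arrays. 0 of 39 members were higher and 8 lower in EoH BM than in EoM BM, against 8.44% of all probes called, 3.69% higher and 4.75% lower, and 5 of the 8 were core genes. The median over all members was -0.03, and the groups lay apart in 8 of 39 members, against 15.1% of all probes. Where probes were detected, 0 of 29 members were higher and 8 lower, against 9.19% and 11.9% of 8361 probes. The beta subunit Psmb1 had 11.85, 10.90, 11.90 and 10.85 in EoH BM, against 12.42, 12.34 and 12.34 in EoM BM. EoH BM replicates 2 and 4 were more than 1 log2 unit below all EoM BM arrays (log2 difference -0.99 ± 0.21 (SE), limma adjusted p = 0.0032). Psmb5 had 8.71, 9.02, 8.63 and 8.89 in EoH BM, against 9.34, 9.69 and 9.57 in EoM BM, without overlap (log2 difference -0.72 ± 0.18 (SE), limma adjusted p = 0.0094). Psmb6 had 11.66, 11.67, 11.40 and 11.65 in EoH BM, against 11.87, 11.86 and 11.96 in EoM BM (log2 difference -0.30 ± 0.08 (SE), limma adjusted p = 0.019). Psmd5, a chaperone of cap assembly, had 7.44, 7.57, 7.88 and 7.70 in EoH BM, against 7.81, 8.66 and 8.68 in EoM BM, with overlap (log2 difference -0.74 ± 0.21 (SE), limma adjusted p = 0.030). Psmb3 and Psma7 were lower with -0.32 and -0.26. The call of Psmb3 was lost without any 1 of 26 of the 32 arrays (-0.35 to -0.27), and that of Psma7 without IL5T EoH BM replicate 1 (-0.26), IL5T EoH BM replicate 3 (-0.20), IL5T EoH BM replicate 4 (-0.26) or IL5T EoM BM replicate 3 (-0.17).

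Psme2 had 9.14, 9.57, 9.35 and 9.35 in EoH BM, against 9.61, 9.88 and 10.16 in EoM BM (log2 difference -0.53 ± 0.15 (SE), limma adjusted p = 0.023). Psme1 had 11.68, 11.53, 11.46 and 11.57 in EoH BM, against 11.75, 12.01 and 12.07 in EoM BM (log2 difference -0.39 ± 0.10 (SE), limma adjusted p = 0.017). In both genes every EoH BM array was below every EoM BM array. The immunoproteasome subunits were not called. Psmb10 had 11.68, 11.71, 11.34 and 11.62 in EoH BM and 0.28 as its difference (adjusted p = 0.22). Psmb8 had 11.76, 11.92, 13.30 and 12.23 in EoH BM and Psmb7 11.66, 11.46, 12.55 and 11.72, where replicate 3 stood apart in both, as it did in Psmd1 at 13.19. The 2 other Psmb7 probes were lower in EoH BM, with -0.78 and -0.42, both called, while the probe with the highest mean gave 0.16, not called.

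Several of these calls rested on single arrays. 2 members were called without EoM BM replicate 3, 4 without EoM BM replicate 2 or EoH BM replicate 3, 5 without EoH BM replicate 1, and 2 when arrays were scaled to a common median. From the arrays of these groups alone 1 member was called, while over all probes 787 were called instead of 2040. Of Psmb1, Psmb5, Psmb6, Psmd5, Psme1 and Psme2, Psmb1 kept its call with each array left out, with a difference between -1.16 and -0.81. The calls lost without EoM BM replicate 2 were Psmb5 with -0.64, Psmd5 with -0.60, Psme1 with -0.35 and Psme2 with -0.54. Those lost without EoM BM replicate 3 were Psmb6 with -0.27, Psmd5 with -0.59, Psme1 with -0.32 and Psme2 with -0.40. Psmb6 with -0.24 and Psme1 with -0.35 also lost theirs without EoH BM replicate 3, and Psme2 with -0.46 and Psmd5 with -0.67 without EoH BM replicate 1, as did Psmd5 with -0.71 without EoH BM replicate 2. Of the related lists, Pdia3 was lower with -0.42 (adjusted p = 0.012), Ube2k with -0.51 (adjusted p = 0.013) and Nfe2l2, which encodes the factor NRF2, with -1.43 (adjusted p = 0.011), and Ubqln4 was higher with 0.60 (adjusted p = 0.0033). Of 9 monocyte markers 3 were higher, with sums of 6041 to 8493 in EoH BM, against 3676 to 5986 in EoM BM, with Ms4a7 not detected in either. Adgre1, with means of 12.46 in EoH BM and 12.00 in EoM BM, weighed most in these sums. T cell marker sums were 444 to 554 in EoH BM, against 1348 to 1695 in EoM BM, with Cd3g called lower and Cd4 and Cd8a not detected in either. The part of these cells was not tested.

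Between blood and marrow, EoH PB differed from EoH BM in 1 member, with 1 higher and 0 lower, against 5.83% of all probes called, 3.19% higher and 2.64% lower. Where probes were detected, 1 of 28 members was higher and 0 lower, against 7.58% and 5.79% of 8406 probes. The member was Psmb1, with 12.12, 12.38 and 12.36 in EoH PB, against 11.85, 10.90, 11.90 and 10.85 in EoH BM (log2 difference 0.91 ± 0.21 (SE), limma adjusted p = 0.0077). The blood arrays lay near the EoM BM arrays. From the arrays of these groups alone, Psmb1 had an adjusted p of 0.30. An unadjusted p under 0.05 was reached by 7 members, a count without the share of all probes beside it, so it does not set the family apart. Psmb8 had 12.03, 10.99 and 11.79 in EoH PB and Psmb10 11.69, 12.09 and 11.83, with differences of -0.70 and 0.28, neither called.

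Over both steps, EoH PB against EoM BM, 1 member was higher and 6 lower, against 14.9% of all probes called, 7.49% higher and 7.45% lower. The groups lay apart in 10 of 39 members, against 25.2% of all probes. Among detected probes 1 of 29 members was higher and 6 lower, against 17.6% and 17.9% of 8674 probes. The higher one was Psmb10, with 11.69, 12.09 and 11.83 in EoH PB, against 11.46, 11.07 and 11.39 in EoM BM, all blood arrays above all EoM BM arrays (log2 difference 0.56 ± 0.14 (SE), limma adjusted p = 0.0044). It kept its call with each array left out, with a difference of 0.44 to 0.65, but not with arrays scaled to a common median (0.49, adjusted p = 0.15) or from the arrays of these groups alone (0.56, adjusted p = 0.090). The other immunoproteasome gene, Psmb8, had a difference of -0.56 (adjusted p = 0.22), and its second probe was called lower with -0.62 (adjusted p = 0.0059). Of the Psmb7 probes, that with the highest mean gave -0.22, not called, and the other two were called lower with -0.53 and -0.89. The lowered set held Psmb5 with 8.61, 9.07 and 9.22 in EoH PB, against 9.34, 9.69 and 9.57 in EoM BM (log2 difference -0.57 ± 0.19 (SE), limma adjusted p = 0.043). Without EoH PB replicate 1 the Psmb5 difference was -0.39, and the call was also lost without EoH PB replicate 2 (-0.62), EoM BM replicate 2 (-0.49), EoM BM replicate 3 (-0.55) or IL5T GMP replicate 3 (-0.57). Psmd5 had 7.58, 6.74 and 7.58 in EoH PB, against 7.81, 8.66 and 8.68 in EoM BM (log2 difference -1.08 ± 0.23 (SE), limma adjusted p = 0.0012). Psmd2, a large scaffold subunit of the cap base, had 6.40, 4.81 and 5.80 in EoH PB, against 6.80, 6.73 and 7.34 in EoM BM (log2 difference -1.29 ± 0.38 (SE), limma adjusted p = 0.019). Its call was lost without EoH PB replicate 2 (-0.86) or EoM BM replicate 3 (-1.10). Psmb3, Psma7 and Psmc3 were lower with -0.49, -0.26 and -0.31. Psma7 lost its call without IL5T EoH PB replicate 2 (-0.19) or IL5T EoM BM replicate 3 (-0.17), and Psmc3 without IL5T EoH PB replicate 1 (-0.24), IL5T EoM BM replicate 1 (-0.34), IL5T EoH PB replicate 3 (-0.31), IL5T EoM BM replicate 2 (-0.30) or IL5T EoM BM replicate 3 (-0.29).

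The number called between EoH PB and EoM BM was 3 without EoM BM replicate 3, 4 without EoH PB replicate 2 and 2 with arrays scaled to a common median, both lower. Markers of other cells also moved. T cell marker sums were 1595 to 2193 in EoH PB, against 444 to 554 in EoH BM and 1348 to 1695 in EoM BM, and Cd3e, Cd2 and Thy1 were higher against either, and Cd3g was lower than in EoM BM, with Cd4 and Cd8a not detected in any of the 3 groups. B cell marker sums were 4032 to 6279 in EoH PB, against 1329 to 5774 in EoH BM and 1371 to 4163 in EoM BM, with Vpreb3 called lower against either and not detected in EoH PB. Monocyte marker sums were 8010 to 11860 in EoH PB, against 6041 to 8493 in EoH BM and 3676 to 5986 in EoM BM, with 6 of 9 higher than in EoM BM. Adgre1, with means of 12.54, 12.46 and 12.00 in these groups, weighed most in the sums. Neutrophil granule sums were 17610 to 40560 in EoH PB, against 45990 to 124700 in EoH BM and 107200 to 149300 in EoM BM. Erythroid marker sums were 1493 to 11600 in EoH PB, against 29270 to 47130 in EoH BM and 6505 to 40110 in EoM BM, with Klf1 and Epor not detected in EoH PB and Slc4a1 called lower against either. Eosinophil marker sums were 15000 to 39960 in EoH PB, against 53960 to 83970 in EoH BM and 92300 to 115500 in EoM BM. The part of these cells in the Psmb10 and Psmb1 differences was not tested. Of 13 interferon response genes, 1 was higher and 0 lower in EoH PB than in EoM BM, Gbp3 with 3.06 (adjusted p = 6.4e-09).

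Before maturation, EoP differed from GMP in both genotypes in Psmb10 and the PA28αβ genes, and in few genes of the core. In IL5T cells 1 of 39 members was higher and 4 lower in EoP, against 9.31% of all probes called, 4.77% higher and 4.54% lower. In WT cells 0 were higher and 6 lower, against 9.22%, 4.36% higher and 4.86% lower. EoP arrays lay apart from GMP arrays in 9 of 39 members, against 20.5% of all probes, in IL5T cells and in 20 of 39 members, against 27.8% of all probes, in WT cells. Among probes detected on every array of either group, 1 of 33 members was higher and 4 lower, against 10.8% and 10.4% of 9226 probes in IL5T cells, and 0 of 33 members were higher and 6 lower, against 9.75% and 11% of 9666 probes in WT cells. Psmb10, Psme1 and Psme2 were called lower in both. Psmb10 had 11.41, 11.09 and 11.24 in IL5T EoP, against 12.13, 11.82, 12.15, 12.10 and 11.93 in IL5T GMP (log2 difference -0.78 ± 0.14 (SE), limma adjusted p = 2.6e-04). In WT mice it had 11.51, 11.45 and 11.39 in EoP, against 12.02, 12.11 and 11.94 in GMP (log2 difference -0.57 ± 0.14 (SE), limma adjusted p = 0.0066). No EoP array of either genotype overlapped its GMP arrays.

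Psme1 had 11.89, 11.92 and 12.01 in IL5T EoP, against 12.75, 12.50, 12.77, 12.60 and 12.53 in IL5T GMP (log2 difference -0.69 ± 0.11 (SE), limma adjusted p = 7.9e-05). In WT mice Psme1 had 12.37, 12.29 and 12.25 in EoP, against 12.87, 12.89 and 12.91 in GMP (log2 difference -0.59 ± 0.11 (SE), limma adjusted p = 6.2e-04). Psme2 had 9.80, 9.78 and 9.85 in IL5T EoP, against 10.75, 10.44, 10.65, 10.56 and 10.35 in IL5T GMP (log2 difference -0.74 ± 0.16 (SE), limma adjusted p = 0.0025). In WT mice Psme2 had 9.72, 9.54 and 9.42 in EoP, against 10.29, 10.52 and 10.54 in GMP (log2 difference -0.89 ± 0.16 (SE), limma adjusted p = 3.5e-04). In all of these the EoP arrays lay below every GMP array. These differences and those of Psmb10 kept their calls with each array left out. Psmb8 was not called, with 12.04, 12.32 and 12.38 in WT EoP, against 12.84, 12.90 and 13.04 in WT GMP (difference -0.68, adjusted p = 0.14), and -0.19 between IL5T EoP and IL5T GMP.

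In the core, Psma7 was lower in EoP in both genotypes, with -0.27 (adjusted p = 0.042) in IL5T and -0.81 (adjusted p = 1.5e-07) in WT cells, the call in IL5T cells being lost without any 1 of 11 of the 32 arrays (-0.31 to -0.23). Psmb5, Psmb6 and Psmb7 were not called, with 0.29, 0.02 and -0.04 in IL5T cells and -0.29, -0.23 and -0.29 in WT cells. The ATPase Psmc3 was higher in IL5T EoP, with 12.68, 12.42 and 12.73 in EoP, against 12.06, 12.27, 12.15, 12.25 and 12.22 in GMP (log2 difference 0.42 ± 0.10 (SE), limma adjusted p = 0.0076). In WT EoP, Psma8 was lower, with 6.90, 6.72 and 7.22 in EoP, against 8.00, 8.02 and 7.95 in GMP (log2 difference -1.05 ± 0.17 (SE), limma adjusted p = 1.3e-04), as was Psmd13 with -0.44 (adjusted p = 0.017), a call lost without WT GMP replicate 1 (-0.43), WT GMP replicate 2 (-0.43) or WT EoP replicate 3 (-0.43). With arrays scaled to a common median, 22 members were lower and 0 higher in WT EoP, and 3 lower and 0 higher in IL5T EoP, so the count in the WT comparison depends on the scaling. Over all probes this scaling called 3945 instead of 2227 in WT cells and 2102 instead of 2248 in IL5T cells. From the arrays of the WT groups alone 10 members and 3093 of all probes were called. Nlrc5, the activator of MHC class I genes, was lower in EoP of both genotypes, with -2.20 (adjusted p = 2.9e-05) in IL5T and -1.69 (adjusted p = 8.1e-04) in WT cells, as was Gbp3 with -2.97 (adjusted p = 2.4e-08) and -2.80 (adjusted p = 8.0e-08), and Irf1 was lower in IL5T EoP with -1.27 (adjusted p = 1.0e-04). Monocyte marker sums were 1145 to 1810 in IL5T EoP, against 6021 to 7686 in IL5T GMP, and 2077 to 2863 in WT EoP, against 4129 to 5258 in WT GMP, and C1qa and C1qb were not detected in EoP. Mast cell and basophil marker sums were 5349 to 8815 in IL5T EoP, against 3069 to 5272 in IL5T GMP, and 16400 to 17810 in WT EoP, against 5079 to 6172 in WT GMP. Neutrophil granule sums were 33980 to 41970 in IL5T EoP, against 64760 to 80450 in IL5T GMP, and 50330 to 59070 in WT EoP, against 66610 to 67300 in WT GMP. Mpo, Elane, Prtn3 and Ctsg weighed most in them. In WT cells the means of Elane (13.5 and 14.2), Prtn3 (12.9 and 13.9) and Lcn2 (7.4 and 8.3) were lower in EoP than in GMP. Those of Ltf (7.1 and 5.5), Ngp (7.2 and 5.0) and Camp (8.7 and 6.6) were higher, and Mpo, Ctsg and Mmp9 differed by less. Erythroid sums were 6266 to 7348 in IL5T EoP, against 2012 to 2591 in IL5T GMP, and 4631 to 5921 in WT EoP, against 1859 to 5855 in WT GMP. In IL5T cells Tfrc weighed most in these sums, with means of 12.55 in EoP and 11.07 in GMP. There Klf1 (9.54 and 6.41) and Epor (6.70 and 5.07) were also higher in EoP, and Hba-a1 (5.56 and 5.82) and Slc4a1 (4.66 and 5.06) lower. Their part in these differences was not tested.

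From CMP to GMP, Psme2 was higher in GMP in both genotypes. In IL5T cells 3 of 39 members were higher and 1 lower in GMP, against 10.7% of all probes called, 4.49% higher and 6.19% lower, and in WT cells 4 were higher and 0 lower, against 9.15%, 4.24% higher and 4.91% lower. Among detected probes 3 of 32 members were higher and 1 lower, against 10.9% and 14.1% of 9232 probes in IL5T cells, and 4 of 33 members were higher and 0 lower, against 9.62% and 10.7% of 9764 probes in WT cells. Psme2 had 10.75, 10.44, 10.65, 10.56 and 10.35 in IL5T GMP, against 9.76, 9.77, 9.64, 10.04 and 9.73 in IL5T CMP (log2 difference 0.76 ± 0.12 (SE), limma adjusted p = 6.5e-05). In WT mice it had 10.29, 10.52 and 10.54 in GMP, against 9.77, 9.84 and 9.80 in CMP (log2 difference 0.65 ± 0.16 (SE), limma adjusted p = 0.0077). All GMP arrays lay above all CMP arrays in both. Its partner Psme1 had 12.75, 12.50, 12.77, 12.60 and 12.53 in IL5T GMP, against 13.03, 12.94, 12.85, 12.84 and 13.26 in IL5T CMP, lower without overlap (log2 difference -0.36 ± 0.09 (SE), limma adjusted p = 0.0051). In WT mice Psme1 had 12.87, 12.89 and 12.91 in GMP and 13.15, 12.99 and 13.01 in CMP, and was not called (-0.16, adjusted p = 0.53). Psma7 was higher in GMP with 0.25 in IL5T and 0.44 in WT cells, and Psma8 with 0.48 and 0.62, all called. Psmc4 was called in WT cells with 0.41. Psmb5, Psmb6, Psmb7, Psmb8 and Psmb10 were not called in either genotype.

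The IL5T arrays of this step lay in both runs that hold progenitors. Within the version 1.1 run Psme2 gave the 1 call among members, while 1532 of all probes were called. The version 2.0 run held only replicates 4 and 5 of IL5T GMP and of IL5T CMP. There 0 members and 145 of all probes were called, so few calls of any kind were made. The Psme2 difference in that run was 0.57 (limma adjusted p = 0.25) and that of Psme1 was -0.49 (limma adjusted p = 0.35). Within the version 1.1 run the Psme1 difference was -0.27 (adjusted p = 0.22). In WT cells, Psma8 lost its call without WT CMP replicate 2 (0.40), WT GMP replicate 1 (0.62) or WT GMP replicate 2 (0.61), and Psmc4 without WT CMP replicate 2 (0.28) or any WT GMP array (0.39 to 0.42). In IL5T cells, Psma8 lost it without GMP replicate 1 (0.44), GMP replicate 5 (0.40) or CMP replicate 1 (0.40). With arrays scaled to a common median, 13 members were higher in WT GMP and 1 in IL5T GMP, and 0 were lower. Over all probes this scaling called 2885 instead of 2210 in WT cells and 2502 instead of 2580 in IL5T cells. Of the related lists, Tap1 was lower in GMP with -0.80 in IL5T and -0.66 in WT cells, and Irf9 with -0.62 and -0.94, all called. T cell marker sums were 339 to 446 in IL5T GMP, against 1033 to 1370 in IL5T CMP, and 339 to 402 in WT GMP, against 880 to 1289 in WT CMP, with Cd3e not detected in any of the 4 groups. Thy1 and Lat weighed most in the CMP sums, with means of 8.9 and 8.8 in IL5T CMP and 8.4 and 9.0 in WT CMP. Monocyte marker sums were 6021 to 7686 in IL5T GMP, against 2143 to 4875 in IL5T CMP, and 4129 to 5258 in WT GMP, against 1213 to 2278 in WT CMP, with Ms4a7 not detected. Their part was not tested.

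The transgene was compared at 3 stages. In EoP, 6 of 39 members were higher and 1 lower in IL5T than in WT mice, against 7.3% of all probes called, 3.75% higher and 3.55% lower. EoP arrays of the genotypes lay apart in 18 of 39 members, against 23.9% of all probes. Among the detected probes 6 of 32 members were higher and 1 lower, against 8.45% and 8.31% of 9338 probes. In GMP and CMP 0 members were called by limma, against 0.0745% and 0.691% of all probes, of which 0.344% were higher and 0.348% lower in CMP. The unadjusted p was under 0.05 for 3 members in GMP and 1 in CMP, counts without the share of all probes beside them. Psmd5 had 8.56, 9.05 and 8.80 in IL5T EoP, against 7.62, 7.90 and 8.05 in WT EoP (log2 difference 0.95 ± 0.23 (SE), limma adjusted p = 0.0099). Psmb3, a noncatalytic beta subunit, had 13.35, 13.40 and 13.62 in IL5T EoP, against 12.91, 13.08 and 12.83 in WT EoP (log2 difference 0.52 ± 0.11 (SE), limma adjusted p = 0.0032). Psma7 had 12.47, 12.36 and 12.50 in IL5T EoP, against 12.00, 12.04 and 11.93 in WT EoP (log2 difference 0.45 ± 0.08 (SE), limma adjusted p = 0.0010). No array overlapped between genotypes in these 3 genes. Psma8, Psmc3 and Psmd13 were higher with 0.66 (adjusted p = 0.017), 0.45 (adjusted p = 0.0062) and 0.40 (adjusted p = 0.040). Psmd13 lost its call without IL5T EoP replicate 2 (0.35), IL5T EoP replicate 3 (0.37), WT EoP replicate 1 (0.42), WT EoP replicate 2 (0.39) or WT EoP replicate 3 (0.38).

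Psme1 was the 1 member lower, with 11.89, 11.92 and 12.01 in IL5T EoP, against 12.37, 12.29 and 12.25 in WT EoP (log2 difference -0.37 ± 0.11 (SE), limma adjusted p = 0.042). Its call was lost without any 1 of the 6 EoP arrays, at differences of -0.40 to -0.33. With arrays scaled to a common median its difference was -0.07 (adjusted p = 0.90), and 9 members were higher and 0 lower. Psmb5 had 11.11, 10.67 and 10.56 in IL5T EoP, against 10.47, 10.16 and 9.98 in WT EoP, not called (difference 0.57, adjusted p = 0.068). Psmb8, Psmb10 and Psme2 were not called, with 0.45, -0.20 and 0.25. Psmd5 lost its call without IL5T EoP replicate 2 (0.82) or WT EoP replicate 1 (0.83). Psma8 lost it without IL5T EoP replicate 2 (0.61), IL5T EoP replicate 3 (0.55), WT EoP replicate 1 (0.64) or WT EoP replicate 2 (0.55). The count was 3 without IL5T EoP replicate 2 or WT EoP replicate 1 and 4 without WT EoP replicate 2. Of the related lists, Psmg3 was higher in IL5T EoP with 0.71 (adjusted p = 0.018), and Irf1 and Irf9 were lower with -0.84 (adjusted p = 0.011) and -0.84 (adjusted p = 2.4e-04). Mast cell and basophil marker sums were 5349 to 8815 in IL5T EoP, against 16400 to 17810 in WT EoP, with Mcpt4 not detected in either and 1 of 5 markers called lower. Erythroid marker sums were 6266 to 7348 in IL5T EoP, against 4631 to 5921 in WT EoP, with Hba-a1 lower and Tfrc higher. Progenitor marker sums were 4359 to 4510 in IL5T EoP, against 6937 to 8158 in WT EoP, neutrophil granule sums 33980 to 41970, against 50330 to 59070 in WT EoP, and monocyte sums 1145 to 1810, against 2077 to 2863 in WT EoP. Their part was not tested.

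**Figure D4:**
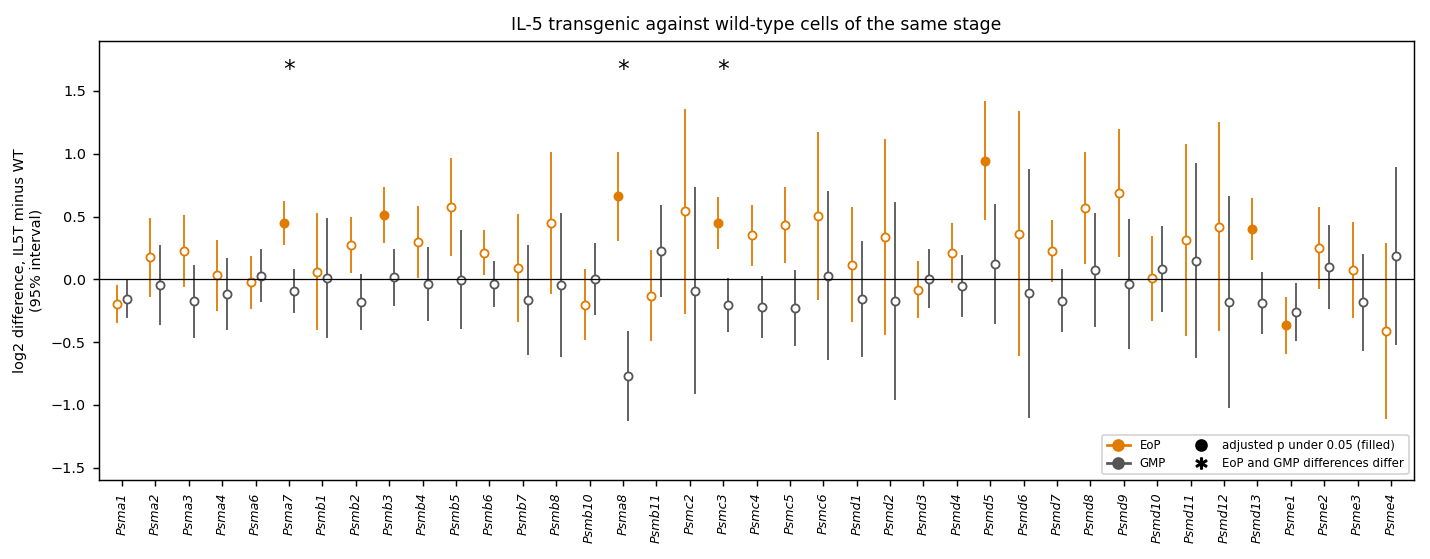
Log2 difference of each proteasome gene, IL5T minus WT, in EoP (orange, 3 against 3 arrays) and GMP (grey, 5 against 3 arrays), with 95% intervals, filled where the adjusted p was under 0.05. Most EoP points lie above the GMP points, and asterisks mark Psma7, Psma8 and Psmc3, in which the 2 differences themselves differed.

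The difference between stages was tested by an interaction. The IL5T minus WT difference was larger in EoP than in GMP for 3 of 39 members and smaller for 0, against 3.26% of all probes called, 1.8% larger and 1.46% smaller. They were Psma8, by 1.43 ± 0.25 (SE, limma adjusted p = 0.0012), Psmc3, by 0.65 ± 0.15 (adjusted p = 0.011), and Psma7, by 0.54 ± 0.12 (adjusted p = 0.011). Against CMP it was larger for 1 member, Psma8, by 1.29 ± 0.25 (adjusted p = 0.0027), against 3.46% of all probes called, 1.68% larger and 1.78% smaller. Psma8 had 7.29, 7.70 and 7.83 in IL5T EoP, against 6.90, 6.72 and 7.22 in WT EoP, whereas it had 7.37, 7.16, 7.25, 6.83 and 7.50 in IL5T GMP, against 8.00, 8.02 and 7.95 in WT GMP, and 6.45, 6.90, 6.76, 6.87 and 6.72 in IL5T CMP, against 7.41, 6.93 and 7.77 in WT CMP. In EoP the transgenic arrays were the higher ones, and in GMP they were the lower ones, with the GMP difference itself not called (-0.77, adjusted p = 0.11). Eosinophil marker sums were 14840 to 41860 in IL5T GMP, against 1523 to 6237 in WT GMP, with 2 of 6 markers called higher, 2550 to 16880 in IL5T CMP, against 293 to 6739 in WT CMP, and 26040 to 27540 in IL5T EoP, against 27070 to 29830 in WT EoP. Ccr3, Siglecf and Il5ra were not detected in IL5T GMP or WT GMP. Psma8 was detected on 0 of 10 eosinophil arrays, and the part of eosinophil RNA in its difference was not tested. For Psmd5 the test of the difference missed the threshold against both stages, with 0.82 (adjusted p = 0.20) against GMP and 1.11 (adjusted p = 0.058) against CMP. With arrays scaled to a common median, 12 members differed between EoP and GMP, while the count over all probes was 1504 instead of 788.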

How the data were processed

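RNA of 32 arrays had been measured on MouseWG-6 beadchips of versions 1.1 and 2.0, and arrays were grouped by their labels. The authors deposited probe intensity values with detection p-values and a table of log2 values per beadchip version. Intensities were corrected by normexp with inferred negative controls and an offset of 16 within each version, after which the 24159 shared probes were quantile normalised together as log2 values. The remade values differed from the deposited log2 values by at most 0.163. limma 3.58.1 (R 4.3.3) was fitted with a mean per group and a version term (22 residual degrees of freedom), with Benjamini-Hochberg adjustment over all probes and a threshold of 0.05. Printed levels were adjusted for version. The number of arrays limits the precision. Pairs of subunits were compared by exact permutation tests. The script was tested on simulated data. Figures were drawn with matplotlib 3.10.9 (Python 3.11.15).

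Values on every array are given for Psmb8, Psmb10, Psmb5, Psmb6, Psmb7, Psme1 and Psme2 and for up to 4 called members of largest change per comparison. Members in counts of 5 or fewer and up to 3 called genes of each related list were also named, and Psmd1, Psmd4 and Eif2s3y, among others, were named after their values were seen. The members and lists were chosen with earlier results of these data known. Alternatives were the deposited values, another offset of 50, median scaling, a detection filter, fits without the version term, with a replicate block, with the mean of all probes, with a minimum change, on the compared arrays alone and within runs, and each array left out.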

Additional observations from a re-analysis of the deposited data

Results flagged for a closer look

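Of 96 tests of a lone array, over called or named members in groups of 4 or 5 arrays, 2 found one, where chance gives about 1 in 20. Psmb6 had 11.40 on EoH BM replicate 3, below the next array at 11.65. Psmd1 had 12.43 on IL5T GMP replicate 1, against 12.93 on the nearest array.

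The IL5T minus WT difference was not the same at all stages. By limma's interaction test it was larger in EoP than in GMP by 1.43 for Psma8, 0.65 for Psmc3 and 0.54 for Psma7, and larger in EoP than in CMP by 1.29 for Psma8.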

How the results depend on the processing

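Counts of called members changed with the settings. With arrays scaled to a common median they were 2 for EoH BM against EoM BM (8 as reported), 2 for EoH PB against EoM BM (7), 3 for IL5T EoP against IL5T GMP (5), 1 for IL5T GMP against IL5T CMP (4), 1 for IL5T GMP against WT GMP (0), 22 for WT EoP against WT GMP (6), 13 for WT GMP against WT CMP (4) and 12 for the transgene effect in EoP against GMP (3). Under it EoM BM had 24 lower and 0 higher against EoP, 29 lower and 0 higher against GMP, and IL5T EoP 9 higher and 0 lower against WT EoP. Without the version term they were 1 for EoH BM against EoM BM, 3 for EoH PB against EoM BM, 2 for IL5T EoP against WT EoP, 0 for IL5T GMP against IL5T CMP and 2 for WT GMP against WT CMP, and Psmb5 and Psmd8 in EoM BM against EoP turned to 0.25 and 0.65. Counts over all probes also changed. With median scaling they were 1167 for EoH BM against EoM BM (2040 as reported) and 2336 for EoH PB against EoM BM (3608). For WT EoP against WT GMP they rose to 3945 (2227). Without the version term they were 1486 for EoH BM against EoM BM and 1188 for IL5T EoP against WT EoP (1764). The cause was not tested.

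Only the probes detected on at least 3 arrays gave 5 for EoH BM against EoM BM and 2 for the transgene effect in EoP against CMP (1). The arrays of the compared groups alone gave 1, 0 and 0 for EoH BM against EoM BM, EoH PB against EoH BM and EoH PB against EoM BM, 3 for IL5T EoP against IL5T GMP and 10 for WT EoP against WT GMP. Over all probes they gave 787, 442 and 2015 in the same eosinophil comparisons (2040, 1408 and 3608 as reported). In the EoP comparisons they gave 1998 (2248) and 3093 (2227). A change of at least 0.5 left 4 for EoH BM against EoM BM, 4 for EoH PB against EoM BM, 3 for IL5T EoP against IL5T GMP, 3 for IL5T EoP against WT EoP, 1 for IL5T GMP against IL5T CMP and 2 for WT GMP against WT CMP. The mean of all probes gave 2 for EoH PB against EoH BM, 5 for the transgene effect in EoP against GMP, 0.76 for Psmb10 and Psmb7 and 0.88 for Psmb8 and Psmb5, which was 0.91 with median scaling. IL5T GMP against IL5T CMP gave 1 within the version 1.1 run and 0 within the version 2.0 run. Over all probes these runs gave 1532 and 145 (2580 as reported). The deviations of same-numbered arrays correlated with r of -0.677 to 0.445 over 5999 probes. They were not set against differently numbered arrays, so this cannot decide whether the numbers paired samples. With a replicate block the counts were 13 for EoM BM against EoP, 4 for EoH BM against EoM BM, 4 for EoH PB against EoM BM, 0 for IL5T EoP against IL5T GMP and 0 for both transgene interactions. Over all probes the block gave 4080 for EoM BM against EoP (6980 as reported) and 545 for IL5T EoP against IL5T GMP (2248). For the interactions against GMP and CMP it gave 59 (788) and 89 (835).

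With each array left out the counts ranged from 18 to 22 for EoM BM against EoP, 23 to 29 for EoM BM against GMP, 2 to 9 for EoH BM against EoM BM, 1 to 2 for EoH PB against EoH BM, 3 to 8 for EoH PB against EoM BM, 4 to 6 for IL5T EoP against IL5T GMP, 3 to 4 for IL5T GMP against IL5T CMP, 5 to 9 for WT EoP against WT GMP, 2 to 5 for WT GMP against WT CMP, 3 to 8 for IL5T EoP against WT EoP, 0 to 1 for IL5T GMP against WT GMP, 0 to 1 for IL5T CMP against WT CMP, 3 to 5 for the transgene effect in EoP against GMP and 1 to 2 in EoP against CMP. Beside the arrays named above, EoH PB against EoH BM gave 2 without EoH PB replicate 1, EoH BM replicate 1, EoM BM replicate 3 or IL5T EoP replicate 1, and WT GMP against WT CMP gave 2 without WT CMP replicate 2, WT GMP replicate 1 or WT GMP replicate 2. Both IL5T against WT comparisons in GMP and CMP gave 1 without WT CMP replicate 2. The transgene effect in EoP against GMP gave 5 without EoH PB replicate 1, EoH BM replicate 3 or IL5T CMP replicate 5, and that in EoP against CMP gave 2 without any EoH PB array, EoM BM replicate 1, IL5T GMP replicate 1, IL5T EoP replicate 1 or WT EoP replicate 2. The pair differences ranged from 0.42 to 0.62 for Psmb10 and Psmb7 and from 0.32 to 0.62 for Psmb8 and Psmb5. Over 92 called member values, 697 of the other settings kept call and direction, 166 lost the call and 2 changed sign, and with single arrays left out 2771 kept it and 173 lost it. Probes near background, such as those of Psme4 and Psmd6, limit what these arrays resolve.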
